A study of Mus musculus with 24 samples.

Results

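Interleukin-6, the chemokines Cxcl1, Ccl2, Ccl7 and Cxcl12, and the cytokines Csf1 and Lif are signals that fibroblasts secrete. Their genes were taken by symbol from the deposited table of counts, and 7 of its 49568 gene symbols belong to them. All 7 passed edgeR's expression filter in each of the 6 comparisons described here. The cells were NIH/3T3, an immortal line of mouse fibroblasts, treated for 24 h with halofuginone, an inhibitor of the glutamyl-prolyl-tRNA synthetase Eprs, or with the vehicle PBS. A stranded mRNA kit was used on RNA of whole cells (total RNA) and on 3 pools of fractions from polysome gradients, and each of the 8 groups held 3 libraries. The groups were halofuginone total RNA, halofuginone ribosome-free, halofuginone light polysomes and halofuginone heavy polysomes, and the same 4 kinds of RNA from vehicle-treated cells. The ribosome-free pool holds free mRNPs and ribosomal subunits, the light pool monosomes and small polysomes, and the heavy pool mRNAs with more than 5 ribosomes.

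Il6 and Cxcl1 are known for a shared kind of control. In fibroblasts NF-kB and AP-1 drive transcription of Il6 and Cxcl1 after inflammatory signals, and proteins such as Zfp36 bind AU-rich stretches of their 3′ UTRs and speed the decay of the mRNA. IL-6 and LIF both signal through the receptor subunit gp130 (Il6st) to Stat3. Cxcl1 attracts neutrophils through Cxcr2, Ccl2 and Ccl7 attract monocytes through Ccr2, Cxcl12 retains and guides cells through Cxcr4, and Csf1 is the growth factor of macrophages.

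The letters that this control reads are shown for the members that hold them most clearly. In the GENCODE M21 annotation of GRCm38, Il6 lies on the plus strand of chromosome 5 (30013114 to 30019981) and Cxcl1 on the plus strand of the same chromosome (90891241 to 90893115). Ccl2 (82035571 to 82037453), Ccl7 (82045712 to 82047525) and Lif (4257557 to 4272514) are on the plus strand of chromosome 11, Cxcl12 is on the plus strand of chromosome 6 (117168535 to 117181367), and Csf1 is on the minus strand of chromosome 3 (107741048 to 107760469). The pentamer ATTTA, the core of AU-rich elements, was counted on the transcript strand of the 3′ UTR. It occurred 6 times in Il6 (14.1 per kb) and 7 times in Cxcl1 (11.8 per kb), against a median of 1.12 per kb over 20633 annotated 3′ UTRs. These densities lie at percentiles 99.5 and 99.1. Lif held 7 copies, Cxcl12 and Csf1 4 each, Ccl7 2 and Ccl2 1, and the longer 3′ UTRs of Lif, Csf1 and Cxcl12 put them at 2.20, 1.90 and 0.771 copies per kb. Ccl7 and Ccl2 stood above Lif by this density, at 4.60 and 3.64 copies per kb. The 9-base form of the element, TTATTTATT, which contains ATTTA, was found at 2 places each in Cxcl1 and Lif and is present in 6.66% of genes. The 30-base windows with the most copies, with ATTTA in capitals, show how the copies are spaced in the 3 members with the highest number of copies.
Il6 (chr5:30019684-30019713, plus strand): atttttaATTTAttgataATTTAaataagt
Cxcl1 (chr5:90892606-90892635, plus strand): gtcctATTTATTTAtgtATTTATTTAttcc
Lif (chr11:4272414-4272443, plus strand): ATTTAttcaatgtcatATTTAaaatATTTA

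Of the 5 members with a promoter in the RefSeq table of GRCm38.p6 (Il6, Cxcl1, Cxcl12, Csf1 and Lif), 3 held the NF-kB consensus within 250 bases before and 50 after the start, a motif found on either strand in 4.51% of 32851 promoters. It lay from 44 bases upstream of the start in Il6, 71 in Cxcl1 and 154 in Csf1. The AP-1 motif TGANTCA, whose 2 strands read alike, was in Il6 and Lif and in 7.81% of all promoters. The C/EBP-ATF motif TGATGNAA was in 0 of the 5 and in 3.97% of all promoters, and the letters TATAAA were in 0 of the 5 and in 13.6% of all promoters. A stretch of 120 bases around the match is printed for Il6 and Cxcl1, the members whose match lies nearest the start, with the NF-kB letters in capitals (in Cxcl1 overlapping matches on both strands).
Il6 (chr5:30012994-30013113, plus strand): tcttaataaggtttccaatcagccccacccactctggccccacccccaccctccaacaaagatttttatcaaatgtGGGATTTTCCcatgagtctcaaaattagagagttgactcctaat
Cxcl1 (chr5:90891125-90891244, plus strand): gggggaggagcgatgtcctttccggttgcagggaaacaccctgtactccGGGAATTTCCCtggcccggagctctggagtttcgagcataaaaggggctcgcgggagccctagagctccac

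The libraries held 10.3 to 24.97 megacounts each, and values are given as CPM, counts relative to library size in the usual CPM unit, scaled with TMM factors within one kind of RNA. The column headers put 8 libraries, 1 of each group, in a set without replicate numbers (set A, called tag A here), whose halofuginone headers name 50 nM where the labels give 100 nM for all samples. The other 16 (set B) carry the tags 2 and 3 in total RNA and 2 and 4 in the pools, and their gradients were cut at other fractions. Libraries of a group are given in the order A, 2, 3 in total RNA and A, 2, 4 in the pools. The ratio of halofuginone to vehicle differed between pairs. Trib3, a stress-induced pseudokinase that serves here as a gauge of the response, stood at 2.21, 15.6 and 16.1 times its vehicle level in total RNA, at 11.03, 0.797 and 1.01 times in the ribosome-free pool, at 12.003, 0.788 and 2.91 times in light and at 15.4, 1.46 and 4.23 times in heavy polysomes. Its vehicle levels differed too, at 6.99, 14.2 and 48.9 CPM in the ribosome-free pool, 16.5, 44.5 and 161 CPM in light and 17.7, 50.8 and 159 CPM in heavy polysomes, and halofuginone tag 4 held the highest Trib3 of the light (468 CPM) and heavy (673 CPM) libraries. Ddit3 and Eprs did not follow Trib3 in every pair. In total RNA Ddit3 stood at 0.942, 11.5 and 8.43 times its vehicle level, and Eprs at 0.990, 3.51 and 3.27 times. In the tag 2 pools Ddit3 was lower with halofuginone, at 0.531 (ribosome-free), 0.591 (light) and 0.541 times (heavy), while Eprs was higher. In the tag A pools both were higher. Trib3 alone therefore does not show how far a pair responded. The ribosome-free pair of tag 4 stood apart. Its log2 ratios of halofuginone to vehicle over 10121 genes correlated at -0.0738 to 0.209 with those of the 11 other pairs. Such ratios do not tell which library of the pair differed. The 2 set B libraries of halofuginone total RNA lay closest of all replicates, with a mean chi-square of 2.96 per gene against 19.6 for the next closest pair, yet differed by more than counting noise. All 8 fibroblast markers reached 5 CPM in total RNA, and of 7 leukocyte, 5 endothelial and 5 epithelial markers only the leukocyte gene Cd14 did. The fibroblast markers summed to 4917 to 9921 CPM with halofuginone and 10322 to 11483 CPM in vehicle, and the leukocyte markers, with the macrophage gene Adgre1 at 0, to 2.58 to 19.3 CPM and 16.9 to 19.4 CPM. The part of these shifts in the results was not tested, and in bulk RNA fewer cells of a type and less RNA per cell cannot be told apart.

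In vehicle cells the members spanned a wide range of levels. Per kb of annotated transcript, total RNA held 831 ± 124 CPM of Ccl2, 335 ± 34.6 of Ccl7, 111 ± 13.9 of Csf1, 46.1 ± 1.21 of Cxcl1, 14.9 ± 6.85 of Cxcl12, 2.88 ± 0.336 of Lif and 0.894 ± 0.481 of Il6 (SD, n = 3). No neighbours in that order overlapped, so by this measure mRNA of the monocyte chemokines led and Il6 came last. The order depends on the 1 transcript taken per gene, that with the longest coding sequence. Before division by length Csf1 (463 CPM) averaged above Ccl7 (268 CPM), and Cxcl12 (83.7 CPM) above Cxcl1 (43.9 CPM). With halofuginone the order per kb was Ccl2 (302 ± 382 CPM), Csf1 (251 ± 122), Ccl7 (144 ± 157), Cxcl1 (19.5 ± 15.01), Cxcl12 (5.38 ± 8.22), Lif (3.96 ± 1.38) and Il6 (0.272 ± 0.177). There only Ccl7 against Cxcl1 and Lif against Il6 did not overlap, as the libraries of set A and set B lay far apart.

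The comparison of total RNA asks which of these mRNAs halofuginone raised or lowered in the cell. Set by tag, which in total RNA only names the libraries, the 4 chemokines and Il6 were 4.26- to 18.2-fold lower with halofuginone in set B, while Csf1 and Lif were higher, and in the pair of set A the ratios of all 7 lay between 0.653 and 1.24. Cxcl12, a chemokine that stromal cells make without stimulation, stood at 83.7, 3.58 and 3.55 CPM with halofuginone and at 128, 58.7 and 64.3 CPM in vehicle. Both set B halofuginone libraries lay far under every vehicle library, whereas the set A library overlapped them. Ccl2 stood at 604, 65.9 and 66.2 CPM against 767, 693 and 568 CPM in vehicle. Ccl7, its neighbour on chromosome 11, stood at 261, 43.8 and 42.0 CPM against 299.8, 259 and 247 CPM, and the 2 genes showed the same split between the sets. Cxcl1 was the only member whose groups did not overlap, at 35.1, 10.6 and 10.1 CPM with halofuginone and 43.4, 45.2 and 43.0 CPM in vehicle, and 11.6% of all 13020 genes tested lay lower without overlap.

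**Figure D1:**
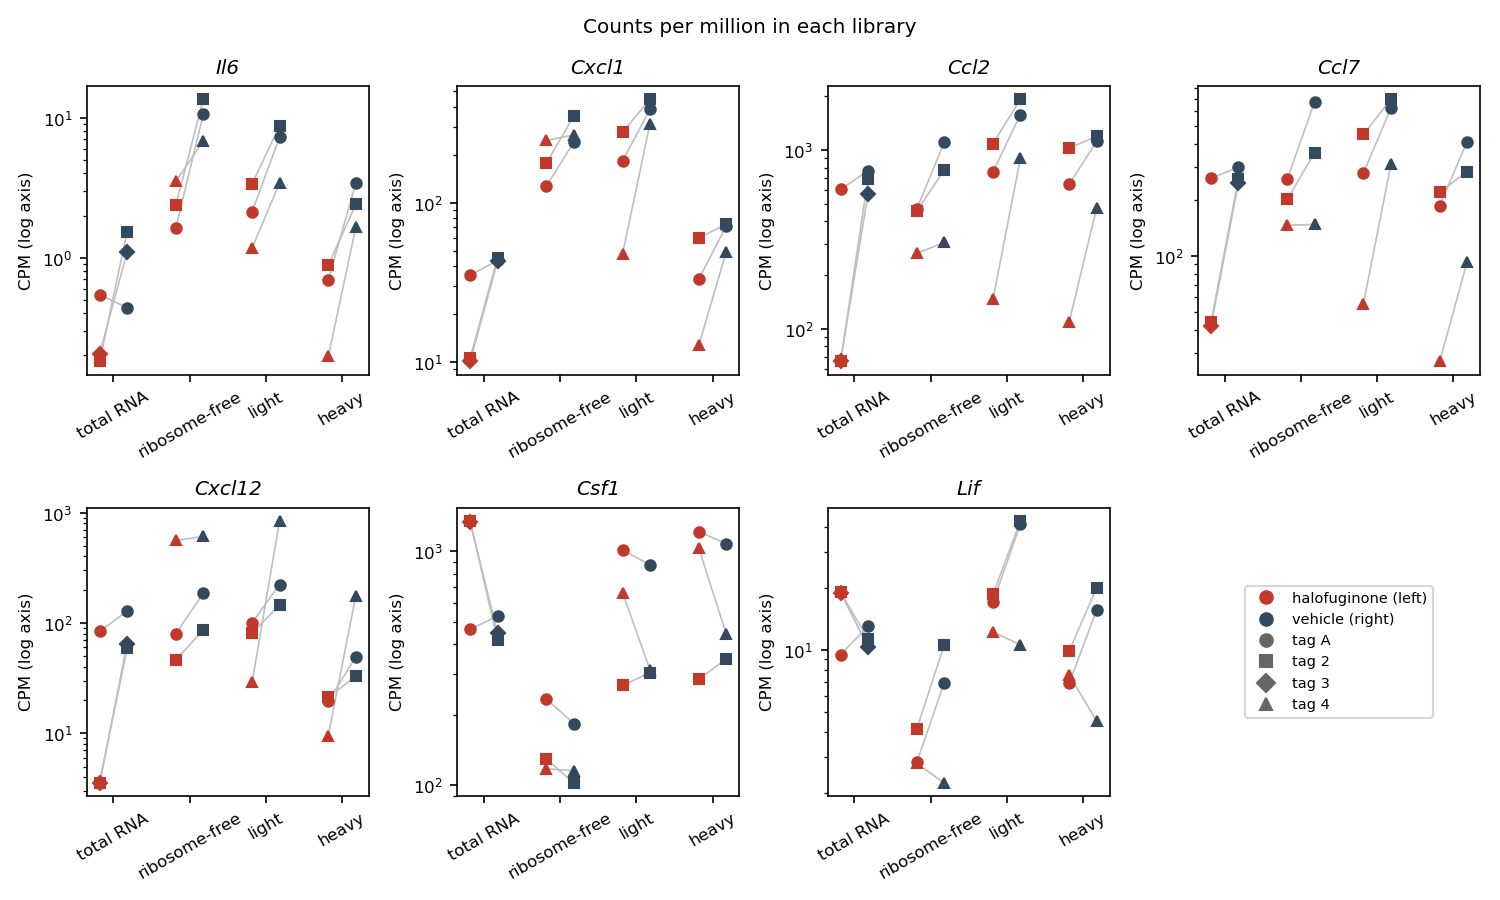
CPM (log axis) of each member in every library, halofuginone (red) left of vehicle (dark), with lines joining libraries of the same tag. In the pools the red points of Il6, Cxcl1, Ccl2, Ccl7 and Cxcl12 lie under their vehicle partner in all 9 pairs, and for the 4 chemokines the points part widely in total RNA of set B (tags 2 and 3) and in light and heavy polysomes of tag 4.

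Il6 was near the limit of detection in total RNA. It stood at 0.544, 0.181 and 0.206 CPM with halofuginone, from 12, 4 and 5 counts, and at 0.439, 1.53 and 1.09 CPM in vehicle, from 8, 36 and 20 counts. Set A went the other way from set B, at counts where a single pair says little. Lif, the gp130 cytokine that keeps mouse stem cells undifferentiated, stood at 9.51, 19.2 and 19.1 CPM against 13.1, 11.3 and 10.4 CPM in vehicle. Csf1 stood at 463, 1350.3 and 1336 CPM against 528, 416 and 446 CPM. For both the set B halofuginone libraries were above every vehicle library and the set A library was not.

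With every library included, edgeR (quasi-likelihood test, threshold 0.05 on the Benjamini-Hochberg adjusted p) called 0 of the 7 members and 0 (0%) of the 13020 genes, while 2292 (17.6%) had an unadjusted p below that threshold. DESeq2 called 515 genes (3.96%) and 0 of the members, and gave Cxcl12 no p. The log2 fold changes were -1.71 ± 0.65 (SE) for Il6, -1.24 ± 0.51 for Cxcl1, -1.46 ± 0.90 for Ccl2, -1.21 ± 0.74 for Ccl7, -1.47 ± 1.25 for Cxcl12, 1.18 ± 0.41 for Csf1 and 0.46 ± 0.31 for Lif, with edgeR adjusted p from 0.267 to 0.495. The set A library lay apart from the other 2 in every member. Within set B alone, with 2 libraries per group, edgeR called 9337 of 13334 genes (70.0%), among them all 7 members, 5 lower (36.9% of all genes) and 2 higher (33.1%). There Cxcl12 fell (log2 fold change -4.15 ± 0.11), as did Ccl2 (-3.30 ± 0.11), Il6 (-2.79 ± 0.42), Ccl7 (-2.61 ± 0.08) and Cxcl1 (-2.14 ± 0.09), while Csf1 rose by 1.59 ± 0.07 and Lif by 0.77 ± 0.11 (edgeR adjusted p of 0.000572 or below). Without the set A halofuginone library alone edgeR called 8246 genes, and all 7 members kept these directions. With so many genes called in both fits, a call by itself sets no member apart. The set B errors rest on 2 libraries per group, and the halofuginone ones lay closest of all replicates. They may therefore understate the spread between cultures, here and for every set B value given below. Within set B Cxcl12 ranked 49th by p among the 13334 genes.

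The comparisons within the gradient pools ask whether mRNA off and on ribosomes was lower or higher too. In vehicle cells mean Il6 was 1.02 CPM in total RNA, against 10.3, 6.48 and 2.48 CPM in the ribosome-free, light and heavy pools. Mean Cxcl1 was 43.9 CPM against 285, 382 and 64.6 CPM. Ccl2 and Cxcl12 also averaged less in total RNA than in every pool, while Ccl7, Csf1 and Lif did not. For Cxcl12 this held against the heavy pool (86.4 CPM against 83.7 CPM) only through tag 4. Its vehicle heavy libraries stood at 49.2, 32.8 and 177 CPM. The pools are therefore not read as parts of the total RNA, and the cause was not tested. Il6 was lower with halofuginone in all 9 pairs of pool libraries, and so were Cxcl1, Ccl2, Ccl7 and Cxcl12, a pattern that 4.66% of the 11463 genes tested in every pool showed. Lif was lower in 6 of 9 pool pairs and higher in the 3 of tag 4, and Csf1 was higher in 7 of 9 and lower in light and heavy polysomes of tag 2.

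**Figure D2:**
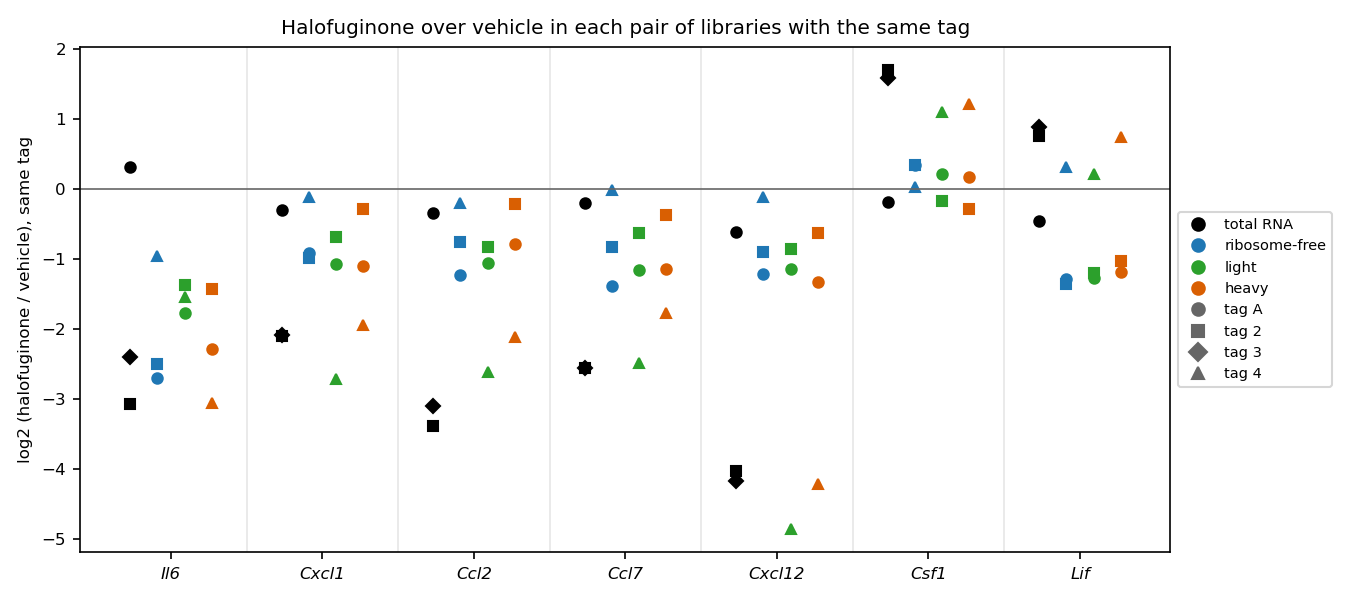
Log2 ratio of halofuginone to vehicle CPM for each member, 1 point per pair of libraries with the same tag, coloured by kind of RNA. Points of Cxcl1, Ccl2, Ccl7 and Cxcl12 all lie under 0, their lowest points are those of total RNA in set B and of light and heavy polysomes in tag 4, and their ribosome-free pair of tag 4 lies closest to 0.

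In the ribosome-free pool Il6 stood at 1.64, 2.39 and 3.52 CPM with halofuginone and at 10.6, 13.6 and 6.81 CPM in vehicle. It was the only member whose groups did not overlap there, and 0.853% of the 11960 genes lay lower without overlap. Its log2 fold change of -2.04 ± 0.45 had the smallest p of all genes tested by edgeR but an adjusted p of 1.00, as 0 genes (0%) were called and 30 (0.251%) had an unadjusted p under 0.05 (DESeq2 called 0). Same-tag libraries of the pools deviated from their group means together, and with the tag as a replicate block Il6 fell by 2.03 ± 0.30 (edgeR adjusted p = 0.00726), one of 3 genes that were lower (0.0251%). That call held without tag A (-1.71 ± 0.33, edgeR adjusted p = 0.000444), without tag 2 (-1.81 ± 0.36, adjusted p = 0.00696) and without tag 4 (-2.61 ± 0.28, adjusted p = 1.81e-06). The other 6 members had block estimates between -0.88 and 0.24 with edgeR adjusted p from 0.101 to 0.714.

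In the chemokines the ribosome-free pair of tag 4, which stood apart, also differed from the pairs of tags A and 2. Cxcl12 stood at 79.9, 46.3 and 559 CPM with halofuginone and at 186, 86.6 and 607 CPM in vehicle, so both tag 4 libraries were high. Cxcl1 stood at 127, 177 and 246 CPM against 239, 350.2 and 266 CPM, Ccl2 at 471, 457 and 265 CPM against 1106, 775 and 305 CPM, and Ccl7 at 258, 201 and 146 CPM against 676, 359 and 148 CPM. In the pairs of tags A and 2 these 4 were 1.69- to 2.62-fold lower with halofuginone, and in tag 4 their ratios were 0.868 to 0.988. Lif stood at 2.83, 4.14 and 2.80 CPM against 6.92, 10.6 and 2.24 CPM, and Csf1 at 233, 129.6 and 117 CPM against 184, 102 and 115 CPM. Leaving out tag 4, a choice made after seeing the data, edgeR with the tag as block called 6 of 7 members lower (1.33% of genes): Il6, Lif (-1.33 ± 0.27), Ccl7 (-1.12 ± 0.20), Cxcl12 (-1.07 ± 0.17), Ccl2 (-1.004 ± 0.22) and Cxcl1 (-0.96 ± 0.18), with edgeR adjusted p of 0.0157 or below. Without tag A or tag 2 the same fit called only Il6 among the members.

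In light polysomes Il6 stood at 2.13, 3.38 and 1.17 CPM with halofuginone and at 7.26, 8.74 and 3.42 CPM in vehicle. Cxcl12 stood at 100.3, 80.2 and 28.9 CPM against 223, 146 and 845 CPM, and Cxcl1 at 183, 277 and 47.9 CPM against 386, 447 and 314 CPM. In these 3 members the groups did not overlap, as in 5.97% of 12632 genes on the lower side. Ccl2 stood at 759, 1089 and 147 CPM against 1584, 1931 and 903 CPM and Ccl7 at 279, 449 and 55.3 CPM against 622, 697 and 310.3 CPM, with an overlap from tag 4, which was lowest in both groups. Il6 was at least 2-fold lower in all 3 pairs, as were 0.720% of genes. Lif stood at 17.1, 18.7 and 12.3 CPM against 41.5, 42.9 and 10.6 CPM, lower in tags A and 2 and slightly higher in tag 4. Csf1 stood at 1013, 267 and 665 CPM against 873, 302 and 311 CPM and was 2.14-fold higher in tag 4.

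EdgeR called 0 of the 12632 genes (0%) in light polysomes, with 540 (4.27%) at an unadjusted p under 0.05, and 3 (0.0237%) with the block, none of them a member. The log2 fold changes were -2.53 ± 0.73 for Cxcl12, -1.54 ± 0.53 for Il6, -1.17 ± 0.56 for Cxcl1, -1.15 ± 0.65 for Ccl2, -1.06 ± 0.67 for Ccl7, -0.98 ± 0.49 for Lif and 0.39 ± 0.58 for Csf1. DESeq2 called 39 genes, and Cxcl12 was among the 14 that were lower (0.111%, DESeq2 adjusted p = 0.0452). Without tag 4 edgeR with the block called 6 of 7 members lower (3.86% of genes), among them Cxcl12 at -1.0003 ± 0.14. The 6 estimates ran from -1.56 ± 0.28 for Il6 and -1.23 ± 0.15 for Lif to -0.87 ± 0.16 for Cxcl1 (edgeR adjusted p of 0.00437 or below), and Csf1 stood at 0.03 ± 0.18. Leaving out tag 4 was a choice made after seeing the data. Without tag A or tag 2 the same fit called no member (lowest edgeR adjusted p 0.106).

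Heavy polysomes hold the mRNAs with more than 5 ribosomes. Il6 stood there at 0.697, 0.891 and 0.197 CPM with halofuginone and at 3.40, 2.40 and 1.65 CPM in vehicle, and Cxcl12 at 19.6, 21.2 and 9.52 CPM against 49.2, 32.8 and 177 CPM. The groups of both members did not overlap, as in 7.06% of 12222 genes on the lower side, and Il6 was at least 2-fold lower in every pair, as in 1.03% of genes. The Il6 values with halofuginone rest on only 14, 18 and 3 counts, which limits these ratios. Cxcl1 stood at 33.3, 60.2 and 12.7 CPM against 71.3, 73.3 and 49.2 CPM, Ccl2 at 647, 1029 and 109.8 CPM against 1120.3, 1197 and 478 CPM, and Ccl7 at 186, 220.0 and 27.0 CPM against 411, 284 and 92.7 CPM. In these 3 chemokines tag 4 showed the largest ratio, 3.44- to 4.35-fold lower, and tag 2 the smallest, 1.16- to 1.29-fold lower. Csf1 stood at 1211, 283 and 1029 CPM against 1078, 347 and 443 CPM, and Lif at 6.92, 9.90 and 7.55 CPM against 15.7, 20.2 and 4.50 CPM.

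None of the 12222 genes passed edgeR's threshold in this pool (0%), with 754 (6.17%) at an unadjusted p under 0.05, and 2 (0.0164%) did with the block, neither a member. The log2 fold changes were -2.36 ± 0.65 for Cxcl12, -2.03 ± 0.61 for Il6, -0.87 ± 0.50 for Cxcl1, -0.86 ± 0.76 for Ccl7, -0.73 ± 0.51 for Lif, -0.65 ± 0.70 for Ccl2 and 0.43 ± 0.60 for Csf1. DESeq2 called 78 genes, with Cxcl12 among 49 lower ones (0.401%, DESeq2 adjusted p = 0.0247). Without tag 4 edgeR with the block called 3 members lower (2.91% of genes): Il6 (-1.82 ± 0.39, edgeR adjusted p = 0.0172), Lif (-1.08 ± 0.19, 0.00495) and Cxcl12 (-0.96 ± 0.19, 0.0130). The estimate for Cxcl12 was thus nearer to 0 without tag 4. Leaving out tag 4 was a choice made after seeing the data here too. Without tag A or tag 2 the same fit called no member (lowest edgeR adjusted p 0.122).

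Whether the effect of halofuginone differed between heavy polysomes and the ribosome-free pool was tested as an interaction over 12 libraries. EdgeR called 0 of 13053 genes (0%), with 53 (0.406%) at an unadjusted p under 0.05, and DESeq2 called 0. The difference (heavy minus ribosome-free) was -1.94 ± 1.33 for Cxcl12 and lay between -0.17 and 0.35 for the other 6 members, with standard errors from 0.66 to 1.02. Those errors leave room for differences of more than 2-fold in either direction. The 12 libraries include the ribosome-free pair of tag 4, which stood apart in its response. With the block the difference for Cxcl12 was -1.14 ± 0.74, and Ccl2 and Ccl7 changed sign, to -0.22 ± 0.44 and -0.26 ± 0.40.

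Where an mRNA lies on the gradient was described by pool shares, the percent of its CPM summed over the ribosome-free, light and heavy libraries of one tag. Each pool counts equally, so the shares compare genes and treatments, not amounts of RNA. CPM were taken over all counts, mitochondrial ones included. These made up 8.69% to 11.1% of the ribosome-free libraries in set A and 22.9% to 34.9% in set B, against 0.276% to 0.746% in heavy ones. When mitochondrial genes or the TMM factors were left out, mean heavy shares of members moved by at least their SD in 3 cases. In vehicle cells the heavy pool held 49.2% ± 2.66 of Csf1, 29.5% ± 1.16 of Ccl2, 26.0% ± 1.46 of Lif, 20.7% ± 3.64 of Ccl7, 13.2% ± 3.19 of Il6, 11.3% ± 0.910 of Cxcl12 and 8.82% ± 1.26 of Cxcl1 (SD, n = 3), against a median of 41.8% over 10121 genes. Only Csf1 lay above that median. The ribosome-free pool held 54.1% ± 3.78 of Il6, the largest share among the members, and 39.0% ± 4.12 of Cxcl1, against a median of 22.3%. Lif was found mainly in light polysomes (61.4% ± 3.24).

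**Figure D3:**
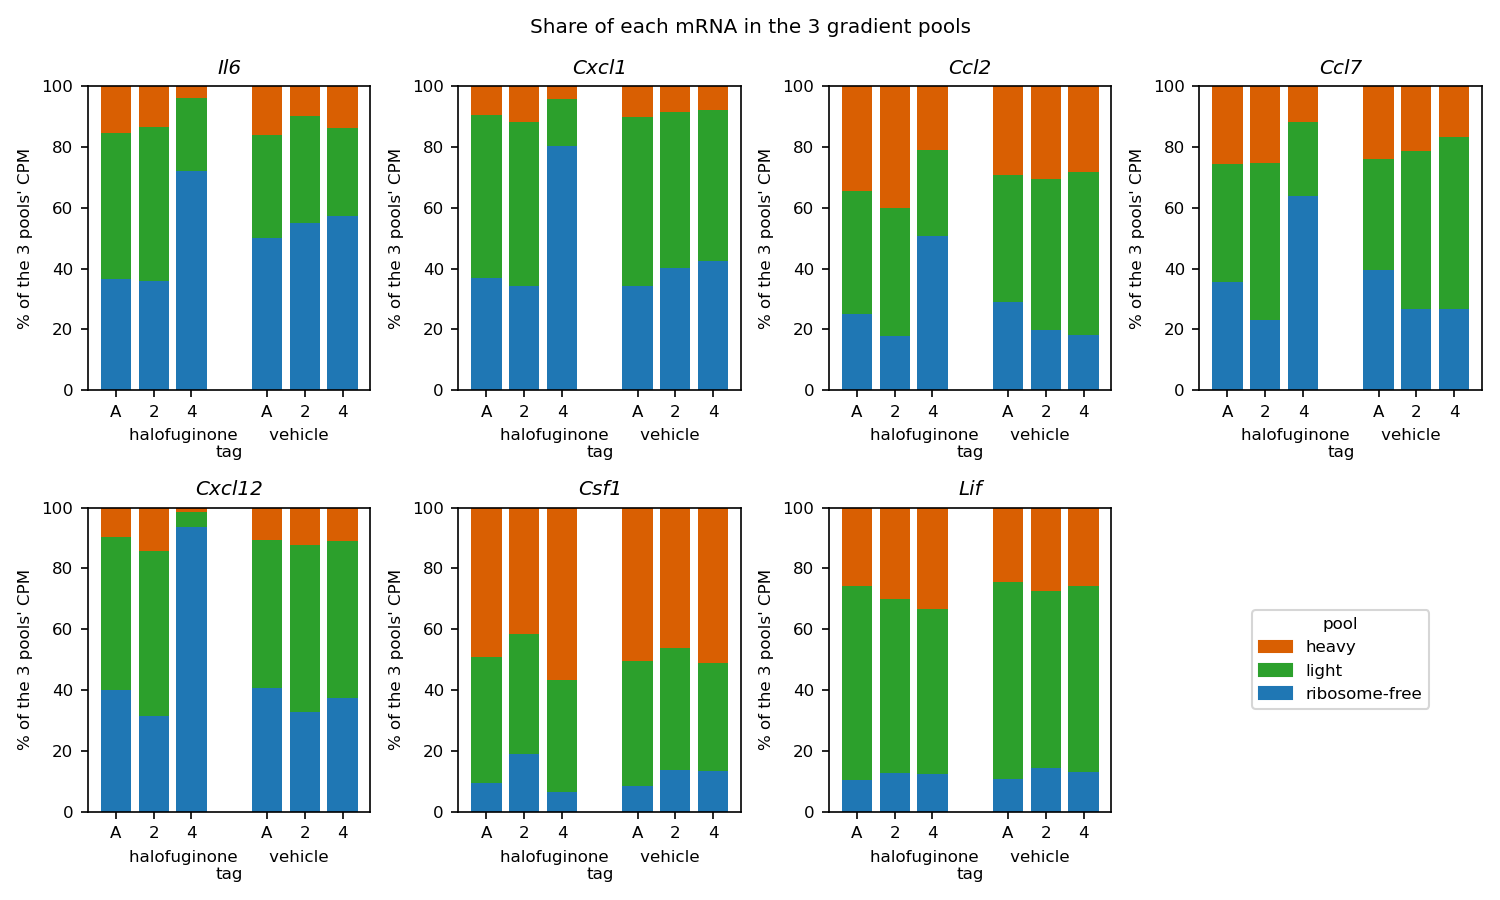
Percent of each member's summed CPM in the ribosome-free (bottom), light (middle) and heavy (top) pool, 1 bar per tag, halofuginone bars left of vehicle bars. In tags A and 2 the ribosome-free part of Il6 is smaller in the halofuginone bars than in the vehicle bars, and in tag 4 the ribosome-free share with halofuginone reaches 93.6% for Cxcl12. The tag 4 bars use the ribosome-free pair that stood apart in its response.

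With halofuginone the heavy shares were 49.2% ± 7.58 for Csf1, 31.8% ± 9.72 for Ccl2, 29.8% ± 3.84 for Lif, 20.9% ± 7.90 for Ccl7, 11.01% ± 6.14 for Il6, 8.58% ± 6.46 for Cxcl12 and 8.52% ± 3.91 for Cxcl1, each within 1.5 times its vehicle value. Tag 4 widened the spread. Its ribosome-free share was 93.6% with halofuginone against 37.3% in vehicle for Cxcl12, 80.2% against 42.3% for Cxcl1, 71.9% against 57.3% for Il6, 63.9% against 26.8% for Ccl7 and 50.8% against 18.1% for Ccl2. These shares rest on the ribosome-free pair of tag 4, which stood apart in its response. For Cxcl12 with halofuginone they set 559 CPM in that pool beside 28.9 CPM in light and 9.52 CPM in heavy polysomes. The cause was not tested. In tags A and 2 the ribosome-free share of Il6 was lower with halofuginone, at 36.6% and 35.9% against 49.9% and 55.0%. The same shares for Cxcl1 were 37.0% and 34.4% against 34.4% and 40.2%, with no common direction. Of 21 exact permutation tests of the shares (two-sided, 3 against 3, for which 0.1 is the smallest possible p) none gave a p under 0.2, and all adjusted p were 1. These tests did not use the pairing by tag. Within all 3 pairs Lif had a higher heavy share with halofuginone (25.8%, 30.2% and 33.4% against 24.5%, 27.4% and 25.9%) and lower light and ribosome-free shares, and Ccl2 had a lower light share (40.4%, 42.3% and 28.2% against 41.6%, 49.5% and 53.5%). No paired test of the shares was run, and how often other genes keep a direction in all 3 pairs was not counted.

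In vehicle cells the heavy pool was tested against the ribosome-free pool directly. EdgeR called 3616 of 12225 genes (29.6%), 2159 of them lower in heavy polysomes (17.7%), and among the members 3 were lower: Cxcl1 (log2 fold change -2.94 ± 0.39, edgeR adjusted p = 0.00186), Il6 (-2.85 ± 0.46, 0.00330) and Cxcl12 (-2.57 ± 0.84, 0.0475). The Cxcl12 call was lost without the ribosome-free library of tag 4 (-1.48, edgeR adjusted p = 0.147), without the heavy library of tag A (-2.24, 0.175) or tag 2 (-2.13, 0.137), and within set B (-2.50 ± 1.07, 0.0999). Ccl7 had -1.42 ± 0.68, Ccl2 -0.47 ± 0.57, Lif 0.23 ± 0.65 and Csf1 1.40 ± 0.53, with edgeR adjusted p from 0.0742 to 0.819. With the tag as block Ccl7 was also lower (-1.38 ± 0.37, edgeR adjusted p = 0.0219) and Csf1 was higher (1.28 ± 0.37, 0.0294), beside 20.1% and 16.8% of all genes.

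Short coding sequences bear fewer ribosomes, and most members are short. The longest annotated coding sequences run to 96 codons in Cxcl1, 97 in Ccl7, 119 in Cxcl12, 148 in Ccl2, 203 in Lif, 211 in Il6 and 552 in Csf1. Over the 89.7% of tested genes with an annotated coding length, the median log2 ratio of heavy to ribosome-free was -2.57 up to 100 codons (190 genes), -1.91 for 101 to 150 codons (512 genes), -0.57 for 151 to 250 codons (1459 genes), 0.00 for 251 to 500, 0.36 for 501 to 1000 and 0.87 above. Set beside genes of their own length class, Cxcl1 and Cxcl12 lay inside it, with 35.3% and 25.8% of the class lower. Ccl2 and Ccl7 lay high, with 88.1% and 87.9% of their classes lower, as did Csf1 (88.4%) and Lif (79.2%). Il6 lay low, with 3.15% of its class lower. Lif and Il6 thus stood apart at nearly equal coding length.

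**Figure D4:**
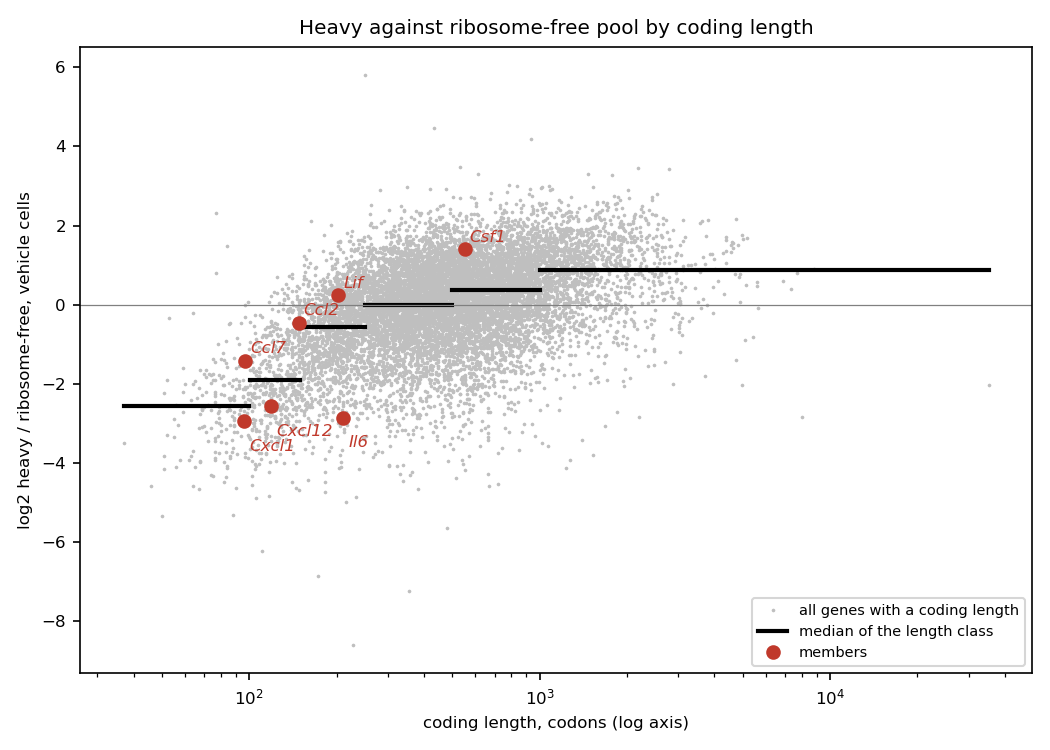
Log2 ratio of heavy polysomes to the ribosome-free pool in vehicle cells against coding length in codons (log axis), with all genes in grey, the median of each length class as a black line and the members in red. Il6 lies at -2.85 against a class median of -0.57, while Ccl2, Ccl7, Lif and Csf1 lie above their class medians.

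Since halofuginone acts on the charging of tRNA with proline, the proline content of the proteins is given as a description. Proline made up 3.32% of the codons of Il6 (7 of 211), 3.36% of Cxcl12, 5.41% of Ccl2, 6.40% of Lif, 7.22% of Ccl7, 7.29% of Cxcl1 and 8.88% of Csf1 (49 of 552), against a median of 5.28% over 21552 genes. Whether proline content relates to the changes with halofuginone was not tested.

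The receptors of these ligands were followed from a list of 10, of which 6 were tested in total RNA. All 6 had a log2 fold change under 0 (median -1.33, against 0.02 over all genes), 0 were called over all libraries, and all 6 fell within set B, where 36.9% of all genes fell and 33.1% rose. Lifr, the LIF receptor, was at a mean of 17.6 ± 8.21 CPM with halofuginone, against 54.2 ± 9.63 CPM in vehicle cells (log2 fold change -1.63 ± 0.36, edgeR adjusted p = 0.267, and -2.23 ± 0.16 within set B, adjusted p = 1.29e-05). In heavy polysomes Il6ra, the ligand-binding subunit of the IL-6 receptor, averaged 11.9 ± 5.28 CPM against 23.6 ± 2.17 CPM (-0.99 ± 0.35, edgeR adjusted p = 0.792). In light polysomes and in the ribosome-free pool the receptor with the smallest p was Ackr3, a scavenger of Cxcl12, at -0.80 ± 0.40 and -0.42 ± 0.33. In vehicle cells Il6st, the shared subunit gp130, averaged 314 ± 49.6 CPM in heavy polysomes and 79.1 ± 27.3 CPM in the ribosome-free pool, the only receptor called in that comparison (1.20 ± 0.39, edgeR adjusted p = 0.0446).

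Among 13 regulators of these genes, 12 were tested in total RNA, with a median log2 fold change of -0.11, and within set B 3 rose and 5 fell, shares near those of all genes (33.1% and 36.9%). Stat3, the transcription factor under gp130, was at a mean of 116 ± 66.0 CPM with halofuginone, against 235 ± 29.3 CPM in vehicle (-1.01 ± 0.39, edgeR adjusted p = 0.272), and fell by 1.73 ± 0.07 within set B (adjusted p = 7.63e-07). In heavy polysomes Stat3 averaged 97.0 ± 17.0 CPM against 157 ± 19.2 CPM (-0.69 ± 0.24, adjusted p = 0.792). The NF-kB subunit gene Nfkb2 averaged 65.8 ± 7.60 CPM against 103 ± 23.0 CPM in light polysomes (-0.65 ± 0.27, adjusted p = 0.981), and the regulator with the smallest p in the ribosome-free pool was Cebpd, at -0.85 ± 0.47. Nfkb1, Nfkb2 and Stat3 were 1.21 to 1.90 log2 units higher in heavy polysomes than in the ribosome-free pool of vehicle cells (edgeR adjusted p of 0.0261 or below).

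The 14 genes listed as inhibitors and decay factors were all tested. The list is broader than this name, as it also holds the RNA-binding protein gene Elavl1. In total RNA 13 of them lay under 0 (median -0.58), and within set B 11 fell and 1 rose, beside 36.9% and 33.1% of all genes. The only mean above vehicle in total RNA was that of Elavl1, at 152 ± 34.6 CPM with halofuginone against 108 ± 6.63 CPM. Nfkbiz, an inducible nuclear IκB protein needed for Il6 transcription, was at a mean of 32.3 ± 4.39 CPM with halofuginone, against 50.9 ± 9.999 CPM in vehicle (-0.65 ± 0.21, edgeR adjusted p = 0.267), and fell by 0.97 ± 0.08 within set B (adjusted p = 1.99e-05). Zfp36, the decay factor that binds AU-rich elements, had the smallest p of this list in all 3 pools. In total RNA it stood at 21.8 ± 0.237 CPM with halofuginone, against 22.3 ± 0.642 CPM in vehicle (-0.04 ± 0.14, edgeR adjusted p = 0.886). It averaged 97.7 ± 26.6 CPM against 153 ± 21.9 CPM in the ribosome-free pool (-0.65 ± 0.35), 75.3 ± 19.5 CPM against 166 ± 32.5 CPM in light (-1.14 ± 0.30) and 14.98 ± 2.01 CPM against 27.0 ± 4.90 CPM in heavy polysomes (-0.85 ± 0.26), with edgeR adjusted p of 0.792 or above. In vehicle cells 6 of the 14 were lower in heavy polysomes than in the ribosome-free pool, beside 17.7% of all genes, among them Zfp36 (-3.31 ± 0.37), Socs1 (-3.21 ± 0.34) and Nfkbia (-2.58 ± 0.38), the last 2 being feedback inhibitors of cytokine and NF-kB signalling (edgeR adjusted p of 0.00268 or below).

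Of 39 other cytokines and chemokines 17 were tested in total RNA, with a median of -0.45 and 12 under 0, and of the 20 tested within set B 13 fell and 4 rose, beside 36.9% and 33.1% of all genes. Cxcl10, an interferon-induced chemokine, was at a mean of 0.132 ± 0.0909 CPM with halofuginone, against 0.736 ± 0.198 CPM in vehicle (-2.42 ± 0.58, edgeR adjusted p = 0.267), and fell by 2.88 ± 0.62 within set B (adjusted p = 0.00399). In light polysomes the chemokine Ccl9 averaged 5.02 ± 3.95 CPM against 17.3 ± 4.81 CPM (-1.77 ± 0.62), and in heavy polysomes Mif, the macrophage migration inhibitory factor, averaged 1482 ± 385 CPM against 822 ± 160 CPM (0.85 ± 0.29), neither called by edgeR. In vehicle cells 6 of 19 were lower in heavy polysomes than in the ribosome-free pool, beside 17.7% of all genes, among them Ccl9 (-2.48 ± 0.54), the IL-6 family member Clcf1 (-2.37 ± 0.57) and Ccl25 (-2.12 ± 0.43).

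Over the 24 libraries the members formed pairs. As a description, the Pearson correlation of log2(CPM + 1) was 0.935 between Ccl2 and Ccl7, 0.889 between Il6 and Cxcl1 and 0.790 between Cxcl1 and Cxcl12, and Csf1 ran against all 5 genes that were lower, at -0.67 to -0.30. Lif correlated with Csf1 at 0.509 and lay between -0.27 and 0.27 with the others. All points share the 4 kinds of RNA, the treatment and the tags, so these values mix gradient position with response. Among 10043 genes whose mean reached 5 CPM, the genes most like each member were Cxcl1 and Zfp36 (0.854) for Il6, S100a4 and Id3 (0.953 and 0.952) for Cxcl1, Cdkn2d and Glrx (0.942 and 0.939) for Ccl2, and Glrx (0.945) and Ccl2 for Ccl7. They were Plekhf1 and Shisa4 (0.929 and 0.922) for Cxcl12, Ddx31 and Nop2 (0.967 and 0.962) for Csf1, and Errfi1 and Paip2b (0.860 and 0.855) for Lif.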

How the data were processed

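The authors deposited 1 table of raw counts per gene symbol for 24 libraries of mRNA. The build GRCm38.p5 and the tools STAR 2.5.2b, featureCounts from Subread 1.5.0p3 and Trimmomatic 0.36 are named per the submitters' processing notes, and whether the counting used strand is not given in the sources used here. Headers were matched to groups, not to single samples, and no column belonged to another sample (0). Whether libraries came from separate cultures is not stated, and the spread behind each p-value may be technical. Gradient fractions were taken as numbered from the top.

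Each comparison was fitted with edgeR 4.0.16 (R 4.3.3; TMM, default filter, quasi-likelihood test, Benjamini-Hochberg over all genes, threshold 0.05) and tested on simulated data first. DESeq2 1.42.0, other scaling, no filter, set, replicate block, removal of mitochondrial genes and omission of libraries were alternatives. Members, lists and the rule for named genes (all 7 members, the called list members up to 3 or else the one with the smallest p, and the 2 genes most like each member) were chosen with earlier results of these data known. No spike-in is mentioned, so CPM are shares of a library. Whether tags pair libraries was judged by correlating deviations from group means across genes: between treatments, same-tag libraries correlated at 0.822 to 0.933 in the ribosome-free pool, 0.411 to 0.816 in light and 0.357 to 0.782 in heavy polysomes, against at most 0.350 between different tags. In total RNA (0.00500 to 0.448, other tags up to 0.509) the tags were not taken to pair libraries. Lengths, coordinates and 3′ UTRs come from GENCODE M21 (the transcript with the longest coding sequence), promoters from RefSeq.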

Additional observations from a re-analysis of the deposited data

How the results depend on the processing

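DESeq2 called 515 genes in total RNA, 39 for light polysomes and 78 for heavy ones, where edgeR called 0, and edgeR without the expression filter called 47 for light polysomes, 105 for heavy ones and 7 for the difference heavy minus ribosome-free. Set as a covariate gave 6 genes in total RNA. Set B alone gave 9337 in total RNA, 1 for that difference and 5524 between the pools of vehicle cells. The replicate block gave 15 genes for the ribosome-free pool, 3 for light polysomes, 2 for heavy ones and 0 in total RNA, where the tags do not pair the libraries. With that block and one tag left out, the counts were 72, 18 and 269 in the ribosome-free pool (without tags A, 2 and 4), 0, 31 and 754 for light polysomes and 1, 13 and 509 for heavy ones. Leaving out one library at a time gave 0 to 8246 genes in total RNA and 1897 to 5844 between the pools of vehicle cells. The cause of these shifts was not tested.

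Over the same omissions the log2 fold change ran from -2.23 to 0.75 for Cxcl12 and -0.12 to 0.56 for Csf1 in the ribosome-free pool, and from -0.088 to 1.08 for Csf1 in light polysomes. Csf1 in heavy polysomes was -0.036 with the block and without tag 4. The difference heavy minus ribosome-free ran from -0.31 to 0.45 for Il6, -0.78 to 0.22 for Cxcl1, -0.36 to 0.78 for Ccl2, -0.59 to 0.65 for Ccl7, -0.17 to 0.91 for Csf1 and -0.22 to 0.77 for Lif. With the replicate block it was -0.22 for Ccl2 and -0.26 for Ccl7, and within set B -0.0092 for Ccl7. Heavy against ribosome-free in vehicle cells ran from -0.82 to 0.028 for Ccl2 and from -0.15 to 0.73 for Lif. Il6 in total RNA rests on 4 to 36 counts per library. With halofuginone it rests on 3 to 18 counts in heavy and 16 to 52 in light polysomes. These counts limit its precision, and intervals across 3 libraries are wide for every member.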
